A study of Mus musculus with 30 samples.

Results

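The genes *Bhmt*, *Serpina12*, *Tesc*, *Ankrd55*, *Bdkrb2* and *Fbln7* are 6 of the 25410 gene symbols listed for the hormone experiment. They were chosen by their counts at day 35, which were higher in cells given 1,25(OH)2D3 (the active hormone made from vitamin D3) than in cells given vehicle. The day 35 values therefore describe the choice and carry no test, while the day 3 comparison and the untreated cells come from libraries the choice did not use. The edgeR fit of 12 libraries behind the day 3 values does share its count filter and its estimate of spread with the day 35 libraries, so values from the day 3 libraries alone are given too. All libraries are of IDG-SW3, a conditionally immortalised mouse line that was expanded at 33 °C with interferon-gamma and then, at 37 °C with the interferon withdrawn, differentiated from late osteoblasts toward osteocytes in ascorbic acid and beta-glycerol phosphate. The hormone experiment has 4 groups of 3 libraries: ethanol vehicle or 100 nM 1,25(OH)2D3, each for 24 h, at day 3 or at day 35 of differentiation. Another 18 libraries, 3 at day 3 and 3 at the end of each week from day 7 to day 35, are of cells given neither hormone nor vehicle. The labels call the replicates biological but do not say how the cultures were kept apart, so the spread between libraries may be partly technical, and every sample is of 1 line.

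1,25(OH)2D3 acts through the vitamin D receptor, a nuclear receptor that binds DNA together with a retinoid X receptor, typically at paired hexamers of the AGGTCA kind. Its best known target is *Cyp24a1*, whose product breaks the hormone down, and in bone both osteoblasts and the matrix-embedded osteocytes respond to it. The 6 genes have unlike roles. *Bhmt* encodes betaine-homocysteine methyltransferase, a liver and kidney enzyme that passes a methyl group from betaine to homocysteine to form methionine. *Serpina12* encodes vaspin, a secreted serine protease inhibitor known from visceral fat and skin, and *Fbln7* encodes fibulin 7, a secreted matrix protein known from teeth. *Bdkrb2* encodes the B2 receptor for bradykinin, a G protein coupled receptor. Inside the cell act tescalcin (*Tesc*), a calcium-binding relative of calcineurin B that binds the sodium-proton exchanger NHE1, and the ankyrin repeat protein *Ankrd55*, found with the intraflagellar transport B complex.

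Promoter windows of 300 bases, from 250 before to 50 after the transcription start, were found for 5 of the 6 genes in RefSeq (GRCm38.p6), with *Ankrd55* not matched. Those printed here are of *Bhmt* and *Fbln7*, which rose with hormone at day 3, and of *Serpina12* and *Bdkrb2*, which reached their high level at day 35 only. Capitals mark 4 hexamers. The first was AGGTCA, to which nuclear receptors commonly bind. The second was GGGTCA, the third was AGTTCA, and the last was GGTTCA. The windows were searched for all 4 on both strands, so that a hexamer of the opposite strand appears as its reverse complement. Each is written 5′ to 3′ on the gene's strand.
Bhmt, chr13:93637709-93638008, minus strand: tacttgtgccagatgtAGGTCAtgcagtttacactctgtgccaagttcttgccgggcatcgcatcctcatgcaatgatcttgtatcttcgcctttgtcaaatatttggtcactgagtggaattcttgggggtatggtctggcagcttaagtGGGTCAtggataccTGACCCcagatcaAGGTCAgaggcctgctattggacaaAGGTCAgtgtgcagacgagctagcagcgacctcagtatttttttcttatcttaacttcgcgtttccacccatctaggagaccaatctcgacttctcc
Fbln7, chr2:128863682-128863981, plus strand: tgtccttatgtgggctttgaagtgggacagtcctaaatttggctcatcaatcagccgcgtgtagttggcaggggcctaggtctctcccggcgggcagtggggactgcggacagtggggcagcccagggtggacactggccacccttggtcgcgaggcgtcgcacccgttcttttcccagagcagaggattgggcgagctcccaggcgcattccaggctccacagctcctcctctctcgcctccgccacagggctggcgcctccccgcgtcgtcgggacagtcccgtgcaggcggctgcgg
Serpina12, chr12:104044394-104044693, minus strand: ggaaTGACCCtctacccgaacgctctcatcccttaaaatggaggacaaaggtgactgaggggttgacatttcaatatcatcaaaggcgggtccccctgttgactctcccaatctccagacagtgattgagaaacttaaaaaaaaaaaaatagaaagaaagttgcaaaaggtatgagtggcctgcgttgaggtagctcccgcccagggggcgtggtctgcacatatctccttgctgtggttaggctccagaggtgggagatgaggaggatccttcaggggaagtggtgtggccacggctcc
Bdkrb2, chr12:105562922-105563221, plus strand: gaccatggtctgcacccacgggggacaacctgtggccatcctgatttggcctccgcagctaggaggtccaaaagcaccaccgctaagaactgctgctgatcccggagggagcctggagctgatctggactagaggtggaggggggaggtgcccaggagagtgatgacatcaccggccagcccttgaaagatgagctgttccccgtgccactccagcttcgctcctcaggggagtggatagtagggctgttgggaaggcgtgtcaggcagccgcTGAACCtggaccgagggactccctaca
The *Bhmt* window holds 5 hexamers. AGGTCA begins at -234, -72 and -47 from the start site, GGGTCA at -99, and a GGGTCA of the opposite strand, printed as TGACCC, at -85. *Serpina12* has 1 (TGACCC, at -246) and *Bdkrb2* has 1 (TGAACC, at 23), whereas these letters do not occur in the windows of *Fbln7* or of *Tesc*. At least 1 of these hexamers occurs in 43.4% of 27025 mouse promoter windows of the same length. A pair of them in the same orientation with 3 bases between, the spacing best known for the vitamin D receptor, was found in none of the 5 windows and in 0.0333% of all windows. The *Tesc* window was the richest of the 5 in G and C (74.7%, against a median of 52.7% over all windows), and that of *Bhmt* was the poorest at 48.0%. Such matches describe letters in these windows and no binding was measured.

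The 12 libraries held 22062866 to 54325515 counts. The 3 hormone libraries of day 3 carried more stray reads than their vehicle libraries. On 1100 genes of olfactory receptors, not known to be expressed in bone, they had 5.87 to 8.15 counts per kilobase, against 0.724 to 0.970 in day 3 vehicle, 0.384 to 1.69 in day 35 vehicle, and 0.698, 5.37 and 0.969 in hormone replicates 1, 2 and 3 of day 35. The expected background of a gene, printed beside its counts, is this rate times the gene's length. Over all 20055 genes tested the median log2 change with hormone was 0.26 at day 3 and 0.02 at day 35, after TMM scaling with factors of 1.18 to 1.29 for the day 3 hormone libraries and 0.909 to 0.959 for their vehicle libraries. As to the label, the summed level of 9 osteoblast markers was 5938 to 8791 CPM (counts scaled to library size) in day 3 vehicle and 39285 to 51868 in day 35 vehicle, and that of 6 osteocyte markers was 97.0 to 127 and 405 to 529, with *Mepe* and *Sost* at 0 in day 3 vehicle. The hormone reached its known target, since *Cyp24a1* had 4, 6 and 5 counts in day 3 vehicle and 261, 148 and 276 with hormone, and 1, 2 and 1 against 3233, 2245 and 4807 at day 35.

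At day 35 all 6 genes had far more counts with hormone, and *Bhmt*, *Tesc* and *Ankrd55* had no more than 6 in any vehicle library. Each had all 3 hormone libraries above all 3 vehicle libraries, an order seen in 10.1% of the genes tested, and 4.56% of them were called there at an adjusted p under 0.05 (edgeR), 2.41% higher and 2.14% lower. Because the genes were chosen for this rise, nothing is read from those shares.

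*Bhmt* had 0, 1 and 0 counts in the vehicle libraries of day 35 and 354, 198 and 351 in the hormone libraries. That is 0.0115 ± 0.0198 against 6.46 ± 0.321 CPM (SD, n = 3 and 3). The hormone libraries lay within 6.11 to 6.75 CPM, the narrowest relative spread of the 6 genes. The ratio of summed counts, scaled to library size, was 607, with a 95% exact interval from 109 to 24005 that covers counting error only. The enzyme's gene was thus all but silent in vehicle and evenly present with hormone.

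*Serpina12* had 14, 22 and 23 counts in day 35 vehicle and 947, 1122 and 1271 with hormone, or 0.654 ± 0.232 against 25.5 ± 8.65 CPM (n = 3 and 3), a fitted log2 change of 5.24 ± 0.62 (SE). Hormone replicate 2, the smallest of its group, held the highest level at 34.6 CPM and replicate 1 the lowest at 17.4. *Tesc* had 1, 3 and 6 counts in vehicle and 568, 344 and 722 with hormone, or 0.115 ± 0.0934 against 11.7 ± 1.93 CPM. The counting ratio for this calcium-binding protein was 110 (95% exact interval 59.6 to 230).

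*Ankrd55* had 0, 4 and 0 counts in day 35 vehicle and 240, 299 and 414 with hormone, or 0.0458 ± 0.0794 against 7.20 ± 2.49 CPM. The counting ratio was 160 (62.4 to 589). *Bdkrb2*, the bradykinin receptor, had 10, 8 and 15 counts in vehicle and 503, 446 and 765 with hormone, or 0.362 ± 0.149 against 12.6 ± 2.91 CPM, a fitted log2 change of 5.07 ± 0.45. *Fbln7* was the only one of the 6 well expressed in vehicle cells, with 1097, 881 and 759 counts there and 7633, 4912 and 8574 with hormone. Its levels were 29.2 ± 1.94 and 152 ± 12.2 CPM, a fitted log2 change of 2.35 ± 0.14, the smallest fold and the largest gain in reads among the 6. In bulk libraries a change in the number of cells that make a transcript and in the amount per cell cannot be told apart.

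**Figure D1:**
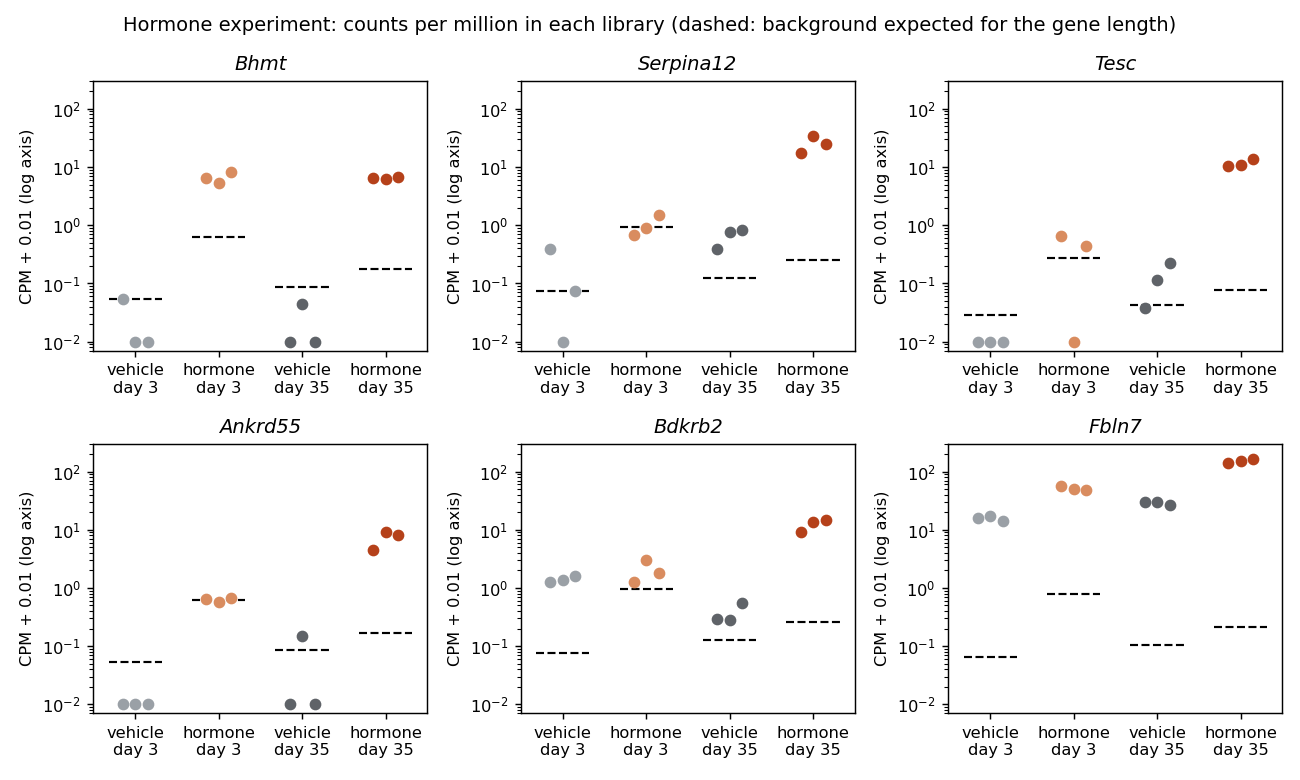
CPM plus 0.01 (log axis) of the 6 genes in each of the 12 libraries of the hormone experiment, by group on the horizontal axis; each point is 1 library and each dashed line is the background expected for the gene's length over its group. All 6 genes stand far above the dashed line in hormone cells of day 35, while at day 3 only *Bhmt* and *Fbln7* do so in all 3 hormone libraries.

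None of the 6 levels in hormone cells of day 35 was near the background. Counts summed over the group were 51.5 times the expected background for *Bhmt*, 56.1 for *Ankrd55*, 64.2 for *Bdkrb2*, 129 for *Serpina12*, 225 for *Tesc* and 978 for *Fbln7*. Even in hormone replicate 2, which carried the most stray reads of its group, the lowest of the 6 was *Bhmt* at 14.8 times. No olfactory receptor gene reached the level per kilobase of any of the 6 in that group.

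Per kilobase of transcript, the order in hormone cells of day 35 was *Fbln7* (49.7 ± 3.97 CPM per kilobase, n = 3), *Tesc* (11.3 ± 1.87), *Serpina12* (6.91 ± 2.35), *Bdkrb2* (3.32 ± 0.768), *Ankrd55* (2.99 ± 1.03) and *Bhmt* (2.59 ± 0.129). The last 3 overlapped in range and cannot be ordered. In day 35 vehicle *Fbln7* again led, at 9.53 ± 0.632 CPM per kilobase, and the other 5 lay between 0.0046 for *Bhmt* and 0.177 ± 0.0630 for *Serpina12*. *Bhmt*, with the lowest mean in either group, had the widest ratio between them.

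At day 3 the same dose and time gave a divided picture. Of the 6 genes, 5 were called higher with hormone at an adjusted p under 0.05 (edgeR quasi-likelihood test, two-sided, adjusted over 20055 genes), where 20.5% of all genes tested were called, 11.4% higher and 9.09% lower. Of these, *Tesc* passed the count filter only through the day 35 libraries that chose it. With the day 3 libraries alone 3 of 5 members tested were called higher (*Bhmt*, *Ankrd55* and *Fbln7*, edgeR adjusted p = 0.000750, 0.00784 and 0.00170), where 19.2% of 19227 genes were. *Bhmt* and *Fbln7* stood well above the background and kept the call under all 13 alternative settings each. *Ankrd55*, *Serpina12* and *Tesc* lay near the level that the stray reads alone would give, and *Bdkrb2* was not called.

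*Bhmt* had 2, 0 and 0 counts in day 3 vehicle and 142, 159 and 248 with hormone. The levels were 0.0148 ± 0.0256 and 6.67 ± 1.51 CPM (n = 3 and 3), and the groups did not overlap, as was the case for 48.5% of genes tested at this age. The log2 change was 8.16 ± 0.71 (adjusted p = 2.78e-06), and the ratio of summed counts was 461 (95% exact interval 127 to 3817). Without vehicle replicate 1, which holds both vehicle counts, the log2 change was 10.56 ± 0.90 (adjusted p = 4.26e-06). Vehicle is then at 0 counts, so this fitted value depends on the prior count. The hormone counts were 10.8 times the expected background, and 1 of the 1100 olfactory receptor genes was as high per kilobase. Before composition scaling, the hormone level of this enzyme's gene at day 3 covered that at day 35: 5.29 to 8.28 CPM against 6.11 to 6.75. The fitted log2 change from day 3 to day 35 in hormone cells, after scaling, was 0.34 ± 0.44, given without a test.

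*Fbln7* had 722, 809 and 664 counts in day 3 vehicle and 1241, 1498 and 1429 with hormone, from smaller libraries. The levels were 15.9 ± 1.61 and 51.3 ± 4.44 CPM, a ratio of 3.22 before composition scaling. The log2 change after it was 1.29 ± 0.14 (adjusted p = 1.61e-05), with the hormone counts at 66.8 times the expected background. At day 35 the fitted change of this matrix gene was 2.35, a difference between the responses of 1.06 ± 0.19 on the log2 scale that is given without a test.

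*Ankrd55* had 0 counts in all 3 vehicle libraries of day 3 and 14, 17 and 20 with hormone, at least 28.6-fold higher against a floor of 3 counts over the group. edgeR called it (adjusted p = 0.00176). The 51 hormone counts stood beside 49.1 expected from background, a ratio of 1.04, and 557 of the 1100 olfactory receptor genes (50.6%) were as high or higher per kilobase. After subtraction of the expected background 0, 3 and 0 counts remained, and the gene was no longer called (adjusted p = 0.171).

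*Serpina12* had 17, 0 and 3 counts in day 3 vehicle and 15, 27 and 44 with hormone, or 0.147 ± 0.202 against 1.02 ± 0.408 CPM. The log2 change was 2.40 ± 0.69 (adjusted p = 0.0287). The 86 hormone counts compared with 75.1 expected from background, and 491 olfactory receptor genes (44.6%) were as high or higher. The call was lost in 6 of 13 settings, among them background subtraction (0.94 ± 1.08, adjusted p = 0.583) and the fit of the day 3 libraries alone (2.40 ± 1.26, adjusted p = 0.190). It was also lost without vehicle replicate 2 or 3 or hormone replicate 2 or 3, where the change was 1.80 to 2.45 (adjusted p 0.0570 to 0.103). Without vehicle replicate 1, which holds 17 of the 20 vehicle counts, the change was 4.41 ± 0.75 (adjusted p = 0.00125).

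*Tesc* had 0 counts in day 3 vehicle and 14, 0 and 13 with hormone, so the groups touched at 0. It was called (adjusted p = 0.0148) in the fit of 12 libraries only because the day 35 hormone libraries let it pass the filter, so nothing is read from that call. It was at least 15.1-fold higher against the floor of 3 counts over the group, with 27 counts beside 21.0 expected from background and 421 olfactory receptor genes (38.3%) as high or higher. After subtraction 7, 0 and 5 counts remained (edgeR fit of 12 libraries, adjusted p = 0.0340). Only the day 35 libraries let it pass the filter there too, so nothing is read from that call either. In the fit of the day 3 libraries alone it was under the count filter and was not tested. With the background subtracted 2 times over, a setting added after the data were seen, 2 of the 6 genes, *Bhmt* and *Fbln7*, were called, and *Tesc* was not (adjusted p = 0.499). Subtracted once, 3 of the 6 were called, where 7.42% of 15584 genes were called higher. They were *Bhmt*, *Fbln7* and, by way of the day 35 libraries in the filter, *Tesc*.

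*Bdkrb2* was already counted in day 3 vehicle, and hormone gave no called change. It had 56, 63 and 74 counts in vehicle, 20.9 times the expected background, and 28, 92 and 53 with hormone, 2.24 times. The levels were 1.40 ± 0.178 and 2.03 ± 0.924 CPM and overlapped. The log2 change was 0.18 ± 0.38 (adjusted p = 0.749). It was -0.51 ± 0.64 after background subtraction (adjusted p = 0.618) and -0.30 without hormone replicate 2 (adjusted p = 0.601), neither called. The counts of this receptor in vehicle cells were lower at day 35 than at day 3 (0.362 against 1.40 CPM, ranges 0.275 to 0.534 and 1.24 to 1.59). Between these ages 2905 of 20055 genes tested were called lower in vehicle cells with edgeR. The day 35 change of *Bdkrb2*, 5.07, thus starts from a lower base. The difference between its responses was 4.90 ± 0.58 on the log2 scale, given without a test.

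**Figure D2:**
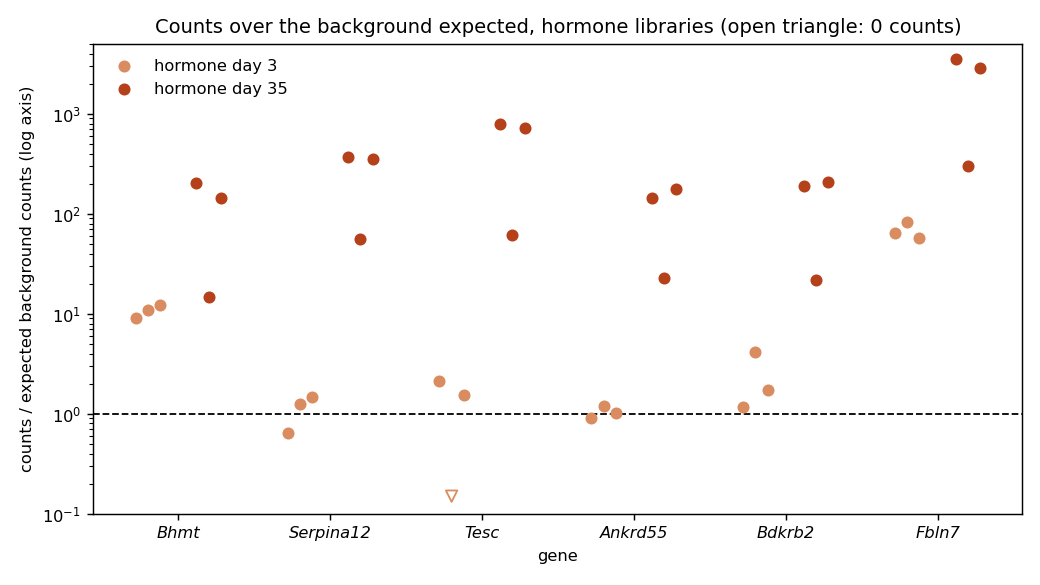
Counts of each gene divided by the background expected for its length (log axis, dashed line at 1) in the 6 hormone libraries; each point is 1 library and the open triangle marks a library with 0 counts. At day 3 *Ankrd55*, *Serpina12* and *Tesc* sit around the line, *Bdkrb2* slightly above it, and *Bhmt* and *Fbln7* clear of it, while every day 35 point is above 10, the lowest of each gene in replicate 2.

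The files list *Ankrd55* in 4 rows of 1 symbol, which were summed. In hormone cells of day 35 the second row held 240, 299 and 396 counts, 98.1% of the gene's total, and the first row 0, 0 and 18. In hormone cells of day 3 the first row held 5, 7 and 20 of the counts (62.7%) and the second 9, 9 and 0. That share rests on replicate 3. In replicates 1 and 2 the second row, which is the day 35 row, held more counts than the first. Which transcripts the rows stand for is not given in the sources used here.

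**Figure D3:**
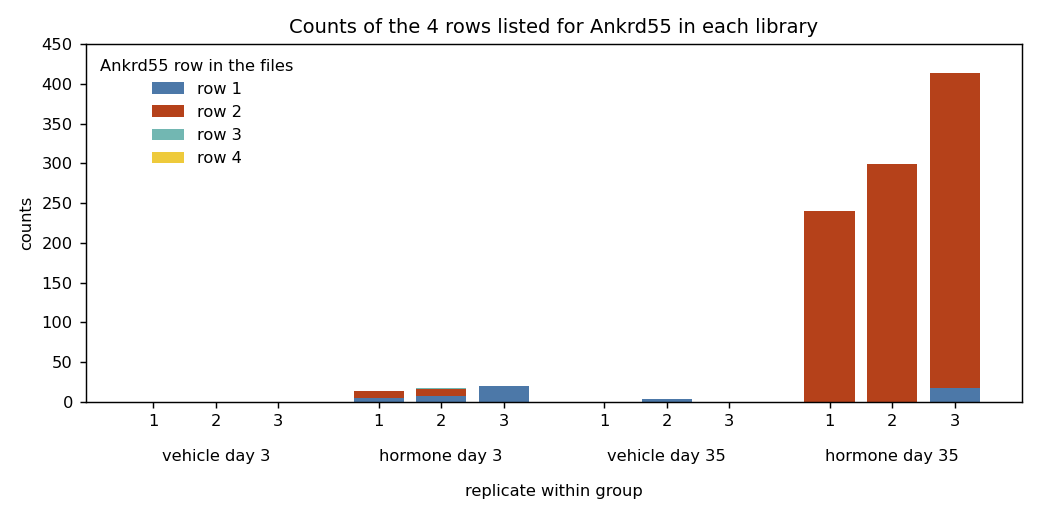
Counts of the 4 rows listed for *Ankrd55*, stacked, in each of the 12 libraries (horizontal axis: replicate within group; vertical axis: counts on a linear scale from 0). The tall bars of hormone cells of day 35, 240, 299 and 414 counts, consist almost wholly of the second row, and the day 3 bars do not exceed 20.

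Untreated cells gave little sign of the 6 genes. In the 18 untreated libraries, prepared with other kits and listed as RPKM (read counts scaled to transcript length and library depth), *Bhmt* and *Tesc* were listed at 0 in every library. No library reached 1 RPKM for any of the 6, so none passed the filter of 1 RPKM in 3 libraries, and limma tested none of them. *Serpina12* was listed above 0 in 10 of 18 libraries. Its values were 0 in all libraries of days 3 and 14, 0, 0.145 and 0 at day 7, and 0.036, 0.23 and 0.041 at day 21. Day 28 gave 0.192, 0.204 and 0.365, and day 35 gave 0.038, 0.212 and 0.074. Detection of the vaspin gene in every library thus began at day 21 and the values were highest at day 28.

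Without the filter 18732 genes were tested, of which 5443 were called at day 28 and 47.5% on some day. There limma on log2(RPKM + 0.5) gave *Serpina12* a change of 0.58 ± 0.13 from day 3 to day 28 (adjusted p = 0.00334, and 0.0129 in the F test over all days). This scale understates the fold of so low a gene. The day 35 value was 0.27 ± 0.13 (adjusted p = 0.122). The day 28 call held in 11 of 11 further settings without the filter, added after the data were seen (adjusted p 0.00158 to 0.0211). *Fbln7*, *Bdkrb2* and *Ankrd55* were tested in that fit too and 0 of these 3 were called on any day. At an unadjusted p under 0.05 *Fbln7* was lower on days 28 and 35 (-0.23 ± 0.09, adjusted p = 0.0687 and 0.0541), and so was *Ankrd55* (-0.15 ± 0.06, adjusted p = 0.0865 and 0.0689). With a replicate block, again chosen after the data were seen, 0 of the 3 were called (*Fbln7* adjusted p = 0.0860 and 0.0697, *Ankrd55* 0.0932 and 0.0759). Fewer genes reached 1 RPKM in the late libraries: 8630 to 8816 at day 3, 6698 to 7968 at day 28 and 5248 to 6776 at day 35. The part of this loss in the late zeros below was not tested. *Fbln7* was listed at 0.033, 0.096 and 0.137 RPKM at day 3 and at 0 in all 6 libraries of days 28 and 35, and its highest value was 0.162 at day 14. *Bdkrb2* reached 0.23 at day 7 in replicate 1 and was listed at 0 in all 9 libraries from day 21 on. *Ankrd55* reached 0.126 at day 3 and was listed at 0 in all 6 libraries of days 28 and 35. These are values of the row numbered 3 among the untreated rows of this gene, where the row numbered 2 was listed at 0 in all 18 untreated libraries. In the hormone experiment the row numbered 2 held 98.1% of the counts of day 35 hormone cells. Whether rows of the same number stand for the same transcript in both experiments was not tested. The row raised by hormone can therefore not be identified among the untreated rows.

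**Figure D4:**
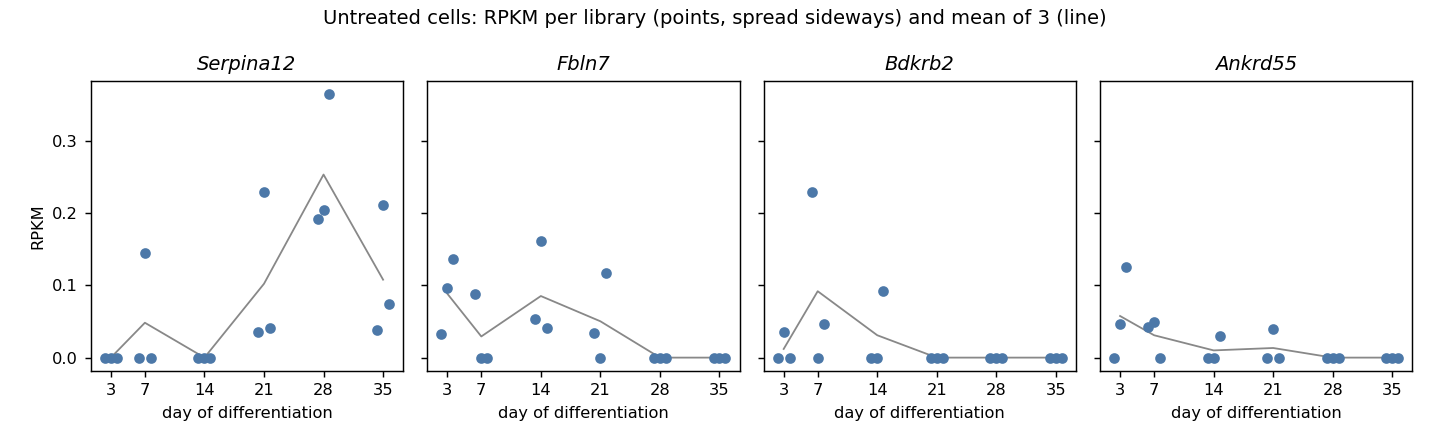
RPKM of 4 of the genes in untreated cells against the day of differentiation; each point is 1 library, the line joins the means of 3, and *Bhmt* and *Tesc* are left out because all their values are 0. *Serpina12* is highest at day 28 (0.192 to 0.365), whereas *Fbln7*, *Bdkrb2* and *Ankrd55* are listed at 0 in all libraries of days 28 and 35.

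Levels set side by side across the experiments differ for *Fbln7*: 5.19 ± 0.525 CPM per kilobase in day 3 vehicle cells and no more than 0.137 RPKM in untreated day 3 cells, and 9.53 against 0 at day 35. The experiments differ in library kit, in the presence of ethanol and in the unit, and these cannot be told apart. The RPKM were computed by the authors, and rRNA rows made up 49.0% to 58.1% of each sum. In vehicle cells *Serpina12* had 0.147 ± 0.202 CPM at day 3 and 0.654 ± 0.232 at day 35, given without a test. The ranges were barely apart before composition scaling, with 0.377 as the highest of day 3 and 0.388 as the lowest of day 35. Between these ages 3101 of 20055 genes tested were called higher in vehicle cells with edgeR.

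Genes of the same pathways were taken from lists made with earlier results of these data known. Over all genes tested 2.41% were called higher and 2.14% lower at day 35, and 11.4% and 9.09% at day 3, so a count of 0 or 1 in lists of 7 to 17 genes at day 35 is near the general share and says nothing particular of a list. Of 11 genes tested in the betaine and methionine cycle with edgeR, 0 were called higher (0 also at an unadjusted p under 0.05 and with DESeq2) and 2 lower at day 35 (median log2 change -0.44, all genes 0.02), and 1 was higher and 3 lower at day 3 (median -0.30, all genes 0.26). The 2 lower genes of day 35 were the choline transporter gene *Slc44a1* (39.3 ± 5.16 to 20.3 ± 2.03 CPM, log2 change -0.97, adjusted p = 0.00272) and *Sardh*, the sarcosine dehydrogenase gene (-0.74, adjusted p = 0.0121). At day 3 *Mat2a*, which makes S-adenosylmethionine, fell by 0.96 on the log2 scale (adjusted p = 0.000506). *Bhmt2*, the neighbour and paralog of *Bhmt*, had 0 counts in all libraries except the day 3 hormone libraries, where 4, 6 and 13 counts stood beside 50.2 expected from background.

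Of 15 serpin clade A genes and vaspin partners tested with edgeR, 0 were called higher (0 also at an unadjusted p under 0.05 and with DESeq2) and 1 lower at day 35. That 1 was *Hspa5*, which encodes GRP78, a cell surface partner of vaspin and a chaperone of the endoplasmic reticulum (443 ± 9.69 to 192 ± 5.49 CPM, log2 change -1.24, adjusted p = 0.000228). *Hspa5* fell at day 3 as well (-0.60, adjusted p = 0.0215). At day 3 edgeR called 2 higher (8 at an unadjusted p under 0.05 and 7 with DESeq2, which called 22% of all genes higher) and 1 lower. The 2 were *Serpina3m* and *Serpina7*, from 0 counts in vehicle, with 27, 11 and 46 and 34, 37 and 25 counts against 33.7 and 38.6 expected from background over the group. They were at least 47.0-fold and 53.7-fold higher against the floor of 3 counts over the group. After background subtraction *Serpina3m* was still called (adjusted p = 0.0139) and *Serpina7* was not (adjusted p = 0.0586). The list's median was 5.02 at day 3 (all genes 0.26), or 4.49 with 4 genes at 0 in a group put at their bound, and 1.02 at day 35 (all genes 0.02). The 5.02 is the change of *Serpina5*, which had 0, 0 and 3 counts in day 3 vehicle and 28, 22 and 35 with hormone. Those hormone counts stood beside 44.0 expected from background over the group, and *Serpina5* was not called after subtraction (edgeR adjusted p = 0.138).

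Of 14 genes of calcineurin, its homologues and the sodium-proton exchangers, 1 was higher and 0 lower at day 35 with edgeR (2 lower at an unadjusted p under 0.05 and 1 with DESeq2, median -0.01), and 2 were higher and 4 lower at day 3 (median -0.47). *Rcan1*, an inhibitor of calcineurin, moved in opposite ways. It had 478, 304 and 458 counts in day 3 vehicle and 47, 51 and 51 with hormone (log2 change -2.69, adjusted p = 2.55e-05), the latter beside 45.2 expected over the group, and 45, 34 and 30 against 166, 118 and 161 at day 35 (1.45, adjusted p = 0.00704). *Slc9a2*, a sodium-proton exchanger gene, was called higher at day 3 from 0 counts in vehicle to 26, 18 and 26, beside 76.6 expected from background over the group, and was not called after background subtraction (adjusted p = 0.274). The tescalcin relative *Chp1*, listed under an older name, fell by 0.64 at day 3 (adjusted p = 0.0102) and did not pass the test at day 35 (0.03, adjusted p = 0.961).

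In the kinin system, 1 of 13 genes was higher and 1 lower at day 35 (median 0.40), and 1 was higher and 2 lower at day 3 (median 0.91). *Mme*, the gene of neprilysin, a peptidase that degrades bradykinin, rose at day 35 from 677 ± 54.4 to 1299 ± 104 CPM (log2 change 0.91, adjusted p = 0.000525), and the phospholipase gene *Plcb3* fell (-0.71, adjusted p = 0.0204). At day 3 the carboxypeptidase gene *Cpm* rose from 90, 112 and 111 counts to 251, 312 and 502 (2.11, adjusted p = 0.000158). The B1 receptor gene *Bdkrb1*, next to *Bdkrb2*, had 2, 13 and 2 counts in day 35 vehicle and 70, 57 and 83 with hormone. Those groups did not overlap, but the change of 2.99 ± 1.30 did not pass the test (adjusted p = 0.298). At day 3 it had 0, 0 and 6 against 11, 7 and 28 (3.20 ± 1.35, adjusted p = 0.0962).

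Of 17 fibulin and elastic fibre genes tested, 3 were higher and 0 lower at day 35 with edgeR (1 lower at an unadjusted p under 0.05 and 1 with DESeq2, median -0.02), and 1 was higher and 1 lower at day 3 (median -0.35). *Fbn1*, the fibrillin 1 gene, rose at day 35 from 469 ± 98.7 to 1048 ± 45.6 CPM (1.13, adjusted p = 0.000297). *Ltbp2*, a latent TGF-beta binding protein gene, rose at both ages (1.07, adjusted p = 0.00818, and 1.18, adjusted p = 0.00753). The collagen and elastin crosslinking enzyme gene *Lox* fell at day 3 (-1.41, adjusted p = 0.00144). Of 15 intraflagellar transport B genes 0 passed the edgeR test at day 35 (2 higher and 4 lower at an unadjusted p under 0.05, 1 higher with DESeq2, median -0.19), and 2 were higher at day 3 (median -0.10), *Ttc30a1* (1.25, adjusted p = 0.000302) and *Ttc30b* (0.79, adjusted p = 0.00606), near-identical copies whose reads the counting may have split.

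Among 7 genes of vitamin D signalling and metabolism, 2 were higher at day 35 (median 0.25) and 2 at day 3 (median 0.77), and 0 were lower at either age with edgeR, at an unadjusted p under 0.05 or with DESeq2. *Cyp24a1* rose by 5.87 on the log2 scale at day 3 (adjusted p = 1.33e-07) and 10.62 at day 35 (adjusted p = 8.81e-09). The receptor gene *Vdr* was higher at day 35 (7.65 ± 2.35 to 24.2 ± 5.42 CPM, log2 change 1.64, adjusted p = 0.0124) and did not pass the test at day 3 (0.91 ± 0.36, adjusted p = 0.0774). Its partner *Rxra* was called at day 3 (0.59, adjusted p = 0.00816) and not at day 35 (0.05, adjusted p = 0.914). In untreated cells, where 72.5% of 9933 genes tested changed on some day, the lists held 3 of 5 called genes for the betaine cycle, 2 of 3 for serpins, 6 of 8 for calcineurin, 3 of 6 for kinins, 11 of 12 for elastic fibres, 8 of 11 for intraflagellar transport and 0 of 1 for vitamin D.

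The genes beside the 6 on the chromosome were counted as well. Of 24 neighbours, the 2 nearest listed on each side, 19 were tested, and 1 was higher and 1 lower at day 35 and 4 were higher and 1 lower at day 3, beside the shares over all genes given above. The median log2 change of the 19 was 0.46 at day 35 and 0.62 at day 3 (all genes 0.02 and 0.26). The 0.46 is the change of *Hrk*, with 0, 23 and 5 counts in day 35 vehicle and 0, 34 and 19 with hormone (edgeR adjusted p = 0.937). Those hormone counts stood beside 37.9 expected from background over the group, and the change was -0.26 ± 1.71 after subtraction. The 0.62 is the change of *Zc3h8*, which was not called (edgeR adjusted p = 0.195). After background subtraction *Fbxo21* was still higher at day 3 (adjusted p = 0.00432). *AW495222* (adjusted p = 0.0793) and *Hrk* (adjusted p = 0.0747) were no longer called, and *2810011L19Rik* was not tested. *Tmem87b*, beside *Fbln7*, was then called higher at day 35 (0.53, adjusted p = 0.0261). The higher one at day 35 was *Map3k1*, a kinase gene beside *Ankrd55*. It had 440, 269 and 228 counts in vehicle and 1797, 1555 and 2252 with hormone, or 9.85 ± 2.11 against 41.5 ± 7.63 CPM (log2 change 2.04 ± 0.19, adjusted p = 1.1e-05). It did not pass the test at day 3 (0.01 ± 0.19, adjusted p = 0.963). On the other side of *Ankrd55*, the cytokine receptor gene *Il6st* had a change of 0.53 ± 0.20 at day 35 that did not pass (adjusted p = 0.203). *Mertk*, near *Fbln7*, fell at day 35 (-0.79, adjusted p = 0.0202). Beside *Tesc*, *Fbxo21* was called higher at day 3 (0.72, adjusted p = 0.00829), and beside *Bhmt*, *Jmy* lower (-0.73, adjusted p = 0.0426, and 0.0605 after background subtraction).

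**Figure D5:**
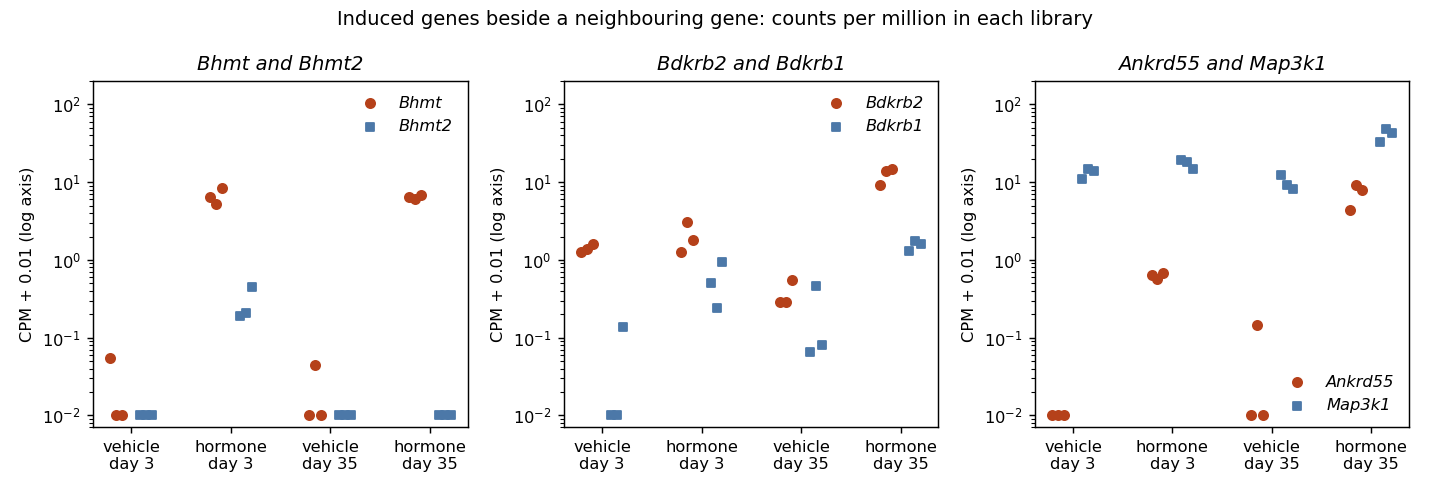
CPM plus 0.01 (log axis) of 3 of the genes (circles) and a neighbour on the chromosome (squares) in each of the 12 libraries by group. *Bhmt2* is at 0 outside the day 3 hormone cells, *Bdkrb1* stays below *Bdkrb2* in the day 35 hormone cells, and *Map3k1* is high in all groups and highest, at 41.5 ± 7.63 CPM, with hormone at day 35.

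The genes with the most similar course over the 12 libraries, by Pearson's r of log2(CPM + 0.5) among 12861 genes with a mean of at least 1 CPM, differed among the 6. These values describe libraries that share the day 35 hormone group, and no test is attached. *Bhmt* was nearest to *Dio3*, the gene of the enzyme that inactivates thyroid hormone (r = 0.977), *Galntl2* (0.976) and *Neu3* (0.974). *Dio3* had 260, 264 and 261 counts in day 3 vehicle and 575, 946 and 945 with hormone. *Serpina12* was nearest to *Rom1* (0.993), *Map4k4* and *Bri3bp* (0.989 each), *Tesc* to *Crabp2* (0.987), *Rom1* (0.987) and *Dgat1* (0.986), and *Bdkrb2* to *Thbd* (0.970), *Il4ra* (0.966) and *Krt17* (0.954). *Ankrd55* was nearest to *Dgat1* (0.987), *Dhdpsl* (0.978) and *1600021P15Rik* (0.977), and *Fbln7* to *Ptges* (0.992), *Mme* (0.986) and *Ddo* (0.985). Among the 6 themselves r ran from 0.665 for *Bhmt* with *Tesc* to 0.975 for *Serpina12* with *Ankrd55*, and *Bhmt* had the lowest r with 4 of the other 5.

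Markers of other tissues, among them those where these genes are better known, were summed in each library. The summed level of 7 hepatocyte markers was 1.91 to 3.72 CPM in day 3 vehicle, 11.5 to 40.6 in day 3 hormone, 1.19 to 4.40 in day 35 vehicle and 0.460 to 9.42 in day 35 hormone cells, with *Alb*, *Ttr*, *Fgb* and *Tat* at 0 in day 3 vehicle. That of 6 adipocyte markers was 7.83 to 17.2, 15.1 to 208, 26.2 to 34.3 and 34.3 to 50.7 CPM in the same order, with *Plin1* at 0 in both groups of day 35. Kidney tubule markers summed to 3.79 to 4.19, 8.18 to 11.5, 4.08 to 6.49 and 2.50 to 6.21 CPM and keratinocyte markers to 1.34 to 2.06, 3.86 to 6.31, 0.854 to 1.86 and 1.80 to 2.44. The adipocyte level reached 208 CPM in 1 hormone library of day 3 and in day 35 hormone cells exceeded the mean level of *Serpina12*. Macrophage and osteoclast markers summed to 134 to 185, 107 to 154, 538 to 684 and 516 to 569 CPM in the same order, with *Ptprc* at 0 in all 12 libraries. Endothelial markers summed to 2.06 to 5.25, 7.49 to 9.22, 1.30 to 2.85 and 1.83 to 5.62 CPM, with *Pecam1* and *Emcn* at 0 in all 12. No expected background was set beside these sums, and the stray reads were highest in the day 3 hormone libraries. The part of such reads or such cells in the results was not tested.

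For *Bhmt* 29.1% of the 36-base windows of its transcripts also occur in other annotated genes, chiefly the pseudogenes *Bhmt-ps1* and *Gm5096*, and 187 bases of its exons overlap *Gm15622* on the opposite strand, so its counts are less certain than those of the others. For *Ankrd55* the share was 2.06%, nearly all with the opposite-strand *Gm48837* (162 bases of exon overlap), for *Fbln7* 0.125%, and for *Serpina12*, *Tesc* and *Bdkrb2* 0. The libraries were directional by the labels, but whether the counting used strand is not given in the sources used here.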

How the data were processed

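Counts of the 12 libraries of the hormone experiment were used as deposited; these files are named for RPKM but hold whole numbers that differ in total between libraries. The 18 untreated files hold RPKM computed by the authors, a unit read from the values, of which rRNA rows made up 49.0% to 58.1% of each sum. TopHat (version not stated) and mm9 are named in the submitters' processing notes; the counter is not given in the sources used here. The authors' kits differed between the experiments, per the labels' protocols, so levels were tested only within each.

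Rows of 1 symbol were summed for counts, and the row with the highest mean was used for RPKM. Counts were tested with edgeR 4.0.16 (filterByExpr, TMM, quasi-likelihood F test over 12 libraries, 8 residual degrees of freedom) and RPKM with limma 3.58.1 on log2(RPKM + 0.5) (12 residual degrees of freedom), in R 4.3.3. Both were two-sided with Benjamini-Hochberg adjustment over all genes tested and a threshold of 0.05, and DESeq2 1.42.0 was an alternative. All 6 genes passed the count filter over the 12 libraries. For edgeR, the SE is the change divided by the square root of F. Scripts were tested on simulated data. With 200 genes raised in simulated day 3 hormone libraries, edgeR recovered 18% of the 2-fold and 58% of the 4-fold rises. Of its calls 5% were false. A gene not called at day 3 may thus still have changed. Lengths and overlaps came from GENCODE vM21 (GRCm38), names and neighbours from RefSeq (GRCm38.p6).

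The members and all lists were chosen with earlier results of these data known. Named genes were the 6 members, up to 3 called genes a list (lowest adjusted p first), *Vdr*, *Cyp24a1*, *Bhmt2* and *Bdkrb1*, the 2 nearest listed genes on each side of a member, summarised by counts with examples, and the 3 genes nearest in course to each. Alternatives were other size factors, filters, tests and scalings, the libraries of 1 day, background subtraction, a replicate block, other rows and each library left out. Intervals and the floor of 3 counts cover counting error only.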

Additional observations from a re-analysis of the deposited data

Results flagged for a closer look

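None of the 6 induced genes was tested for a difference between the hormone responses of the 2 ages, because day 35 chose them. Among the other genes named from the lists, 8 had responses that differed between day 35 and day 3 by edgeR's interaction test (adjusted over 20055 genes, log2 day 35 response minus day 3 response, 3 libraries a group). Over all genes tested 1420 of 20055 did. Most of the named genes were picked for a low adjusted p at day 3 or day 35 in these same libraries. The count of 8 is partly set by that choice, and nothing is read from it. The response of *Rcan1* was 4.14 higher at day 35 (-2.69 at day 3 and 1.45 at day 35, adjusted p = 1.59e-05). That of *Cyp24a1* was 4.76 higher at day 35 (5.87 and 10.62, adjusted p = 0.00118), that of *Fbn1* 0.90 higher (0.23 and 1.13, adjusted p = 0.0197) and that of *Mme* 0.67 higher (0.24 and 0.91, adjusted p = 0.0398). The difference was -1.18 for *Ttc30a1* (1.25 and 0.07, adjusted p = 0.0101) and -1.44 for *Cpm* (2.11 and 0.67, adjusted p = 0.0370). It was -7.66 for *Serpina3m* (7.97 and 0.31, adjusted p = 0.0133) and -7.10 for *Slc9a2* (7.73 and 0.63, adjusted p = 0.0178), both at 0 counts in day 3 vehicle, so that these fitted values depend on the prior count. After subtraction of the background per kilobase *Serpina3m* (adjusted p = 0.0530) and *Slc9a2* (adjusted p = 0.466) no longer passed, and the other 6 did, with adjusted p from 1.18e-05 to 0.0470.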

How the results depend on the processing

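The count of the 6 genes called higher at day 3 was 5. It was 3 in the fit of the day 3 libraries alone, which could test 5 of them, 3 after background subtraction and 2 after subtracting the background 2 times over, a setting added after seeing the data, and 4 to 5 with each library left out in turn. *Tesc* is counted only in fits that hold the day 35 libraries, and in the fit without them it was under the count filter. *Bdkrb2* reversed to -0.51 with the background subtracted and to -0.30 without hormone replicate 2 of day 3, and ran from -0.30 to 0.44 with each library left out, uncalled in all of these. In untreated cells the count called was 0, also with each library left out, because the filter let none of the 6 be tested; without the filter 4 were tested and 1, *Serpina12*, was called, as it was with each library of days 3 and 28 left out. Day 3 calls over all genes were 2278 higher and 1824 lower, 4407 and 2005 with DESeq2, 3691 and 1422 in the fit of that day alone, and 1156 and 1406 after background subtraction; the total of 4102 became 1727 to 3833 with a library left out, with 2632 without vehicle replicate 2 and 2508, 2025 and 1727 without hormone replicates 1, 2 and 3. At day 35 the total was 914, 1588 with DESeq2, 1402 in the fit of that day alone, and 589 to 775 with a library left out, lowest without vehicle replicate 2. Day 35 values of *Bhmt* and *Ankrd55*, at 8.84 and 7.23, were 11.08 and 11.23 without vehicle replicate 2, which holds all their vehicle counts. Vehicle is then at 0 counts for both genes, so these fitted values depend on the prior count. With a replicate block 5 of the 6 genes were called at day 3 (*Serpina12* adjusted p = 0.0488), with 1790 genes higher and 1548 lower over all. Deviations of same-numbered libraries from their group means had r -0.205 to 0.526 in the hormone experiment, over 0.1 in 2 of 18 pairs. Both were vehicle with hormone at day 35, replicates 1 (0.369) and 2 (0.526), where differently numbered pairs gave -0.497 to 0.314. Same-numbered untreated pairs were over 0.1 in 41 of 45, and differently numbered ones in 29 of 90. Every untreated replicate 1 is of run 230 and the others are of run 243, 246 or 247, with 246 at day 35 only. Replicate number and run cannot be fully told apart there. In untreated cells the block tested none of the 6 with the filter, giving 0, and without the filter it called *Serpina12* at day 28 (0.58, adjusted p = 0.00158) and none of the other 3 tested. The stray reads limit what the day 3 values of *Ankrd55*, *Serpina12* and *Tesc* can show, at 1.04 to 1.29 times the expected background; a limit from depth alone was not tested.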
